A study of Bos taurus with 8 samples.

Results

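A set of 5 miRNAs known from liver, intestinal epithelium and endocrine cells was followed in the blood of healthy dairy cattle. They were chosen by name, as bta-miR-122, bta-miR-192, bta-miR-194, bta-miR-215 and bta-miR-375, and all 5 were found among the 534 miRNAs listed for each library. Of the 534 miRNAs, 445 had reads, and the 5 members were among the 365 with over 1 RPM (miRNA reads scaled to 1000000 in each library) in 2 or more cows of one sample type, called expressed here. The libraries came from 4 healthy lactating Holstein cows, with 1 small RNA library from serum and 1 from exosomes isolated out of the same serum for each cow, 8 libraries in all. The cows numbered 1 to 4 in sera are the same animals as in exosomes. The RNA of sera and of exosomes was extracted with different kits from different volumes of serum, so an effect of the extraction and one of the sample type cannot be told apart. In blood, release from fewer cells of a type and less RNA per cell cannot be told apart either.

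MiRNAs are short RNAs that lower the output of matching messenger RNAs, and a part of them leaves cells bound to proteins or inside vesicles such as exosomes. MiR-122 is the miRNA that dominates hepatocytes and is widely used as a blood marker of liver injury. MiR-192, miR-194 and miR-215 are characteristic of epithelium in liver, intestine and kidney, where their genes are driven by hepatocyte nuclear factors. MiR-192 and miR-215 share their seed, the short stretch that recognises targets, and belong to 1 family, while miR-194 is a separate family made from the same transcripts. MiR-375 is the miRNA of pancreatic islets and of other endocrine and gut cells, where it restrains hormone secretion.

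In the RefSeq annotation (ARS-UCD2.0), the gene of miR-192 lies on chromosome 29 beside MIR194-2 and MIR194B-2. The gene of miR-215 lies on chromosome 16 beside MIR194-1 and MIR194B. MiR-122 on chromosome 24 and miR-375 on chromosome 2 have no other annotated miRNA gene within 5000 bases. A read of mature miR-194 therefore has at least 2 candidate genes, MIR194-2 and MIR194-1, 1 in each cluster. Whether MIR194B-2 and MIR194B could also give such reads was not tested. The mature forms of miR-192 and miR-215 are close in sequence, so how reads were divided between them depends on the authors' alignment and their separate levels are uncertain to that extent. No member had the same values as another miRNA in every library, which 84 of the 445 miRNAs with reads did.

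The sera libraries held 264769 to 590162 miRNA reads and the exosome libraries 60682 to 157710. A level of 3 reads, about the one-sided 95% limit for a count of 0 and used as the floor, came to 5.08 to 11.3 RPM for sera and 19.0 to 49.4 RPM for exosomes. Intervals and floors cover counting error only, since PCR copies of a molecule are counted as separate reads. Both libraries of cow 1 stood apart in the sum of the 7 muscle miRNAs. It took 2.31% (serum) and 2.63% (exosomes) of the reads against 0.0164% to 0.0355% in the other 6 libraries. Most reads of this list were of miR-133a alone, with 6059 in the 4 sera and 1625 in the 4 exosome libraries. Group comparisons, correlations and spreads between cows are therefore also given without cow 1 (an alternative added once the values had been seen).

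The members covered a wide range of levels, and miR-192 was the highest of the 5 in every library. Its share of all miRNA reads averaged 4.82% ± 1.20 for sera and 3.72% ± 1.47 for exosomes (SD, n = 4), and its rank among all miRNAs was 3 to 7 in sera and 4 to 9 in exosomes. For miR-215 the share was 1.31% ± 0.514 and 1.11% ± 0.676 (SD, n = 4), with ranks between 13 and 28. For miR-375 it was 0.255% ± 0.0270 and 0.241% ± 0.0352 (SD, n = 4), with ranks between 37 and 58. MiR-194 was ranked between 111 and 154, and miR-122, the liver miRNA, was ranked 145 to 233 in sera and 179 to 214 in the 3 exosome libraries that had reads of it.

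The order miR-192, miR-215, miR-375, miR-194 and miR-122 was found in 8 of 8 libraries. Between the first 4, the exact 95% counting intervals did not overlap in any library. The intervals of miR-194 and miR-122 overlapped in 2 libraries, the exosomes of cow 3 and cow 4, so this pair was not separated there. MiR-192 was 2.73 to 5.05 times the level of miR-215, miR-215 was 2.49 to 10.6 times that of miR-375, and miR-375 was 6.45 to 25.6 times that of miR-194.

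MiR-192 had 57437, 56112, 31446 and 47759 RPM in serum (cows 1 to 4). In their exosomes it had 57216, 36717, 22033 and 32978 RPM. Cow 1 was the highest and cow 3 the lowest in both sample types, and the ranges of sera and exosomes overlapped widely. Within cows, sera and exosomes were level in cow 1, and sera were 1.43 to 1.53 times the exosomes in the other 3.

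MiR-215, the family member of miR-192, had 19500, 14865, 8407 and 9463 RPM in serum (cows 1 to 4). In exosomes it had 20978, 10097, 6833 and 6594 RPM. Cow 1 was again the highest in both sample types, and its exosomes were the highest of the 8 libraries. Sera were above exosomes in 3 of 4 cows, with cow 1 the exception at 0.930 times.

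MiR-194, which lies beside both, had 359, 312, 257 and 220 RPM in serum (cows 1 to 4), from 96, 184, 68 and 98 reads. In exosomes it had 264, 203, 137 and 88.8 RPM, from 16, 26, 14 and 14 reads. The cows were in the same order in both sample types, cow 1 first and cow 4 last. Sera were above exosomes in 4 of 4 cows, by 1.36 to 2.48 times, and the 2 ranges overlapped only through the exosomes of cow 1.

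MiR-375, the endocrine miRNA, had 2317, 2940, 2497 and 2449 RPM in serum (cows 1 to 4). In exosomes it had 1978, 2643, 2743 and 2270 RPM. Cow 1 was the lowest in both sample types, and no library departed far from the others. The highest serum was 1.27 times the lowest, and the highest exosome library 1.39 times the lowest.

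MiR-122 had 41.2, 108, 71.8 and 13.5 RPM in serum (cows 1 to 4), from 11, 64, 19 and 6 reads. In exosomes it had 0, 31.2, 48.8 and 19.0 RPM, from 0, 4, 5 and 3 reads. The serum of cow 2 was 8.03 times that of cow 4, and their exact 95% intervals of 83.5 to 138 RPM and 4.94 to 29.3 RPM did not overlap. All 4 exosome libraries had intervals that overlapped each other, and the 0 of cow 1 has an exact interval up to 60.8 RPM (49.4 RPM at 3 reads). At the level of its serum, cow 1 would have given 2.50 reads in the exosome library, so a difference was not detectable in that cow at this depth. In cow 2, the same reckoning gave 13.9 reads against the 4 found. There the exact intervals of serum (83.5 to 138 RPM) and exosomes (8.50 to 79.9 RPM) did not overlap. In cows 3 and 4 the reckoning gave 7.36 against 5 and 2.13 against 3, and the intervals of serum and exosomes overlapped.

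**Figure D1:**
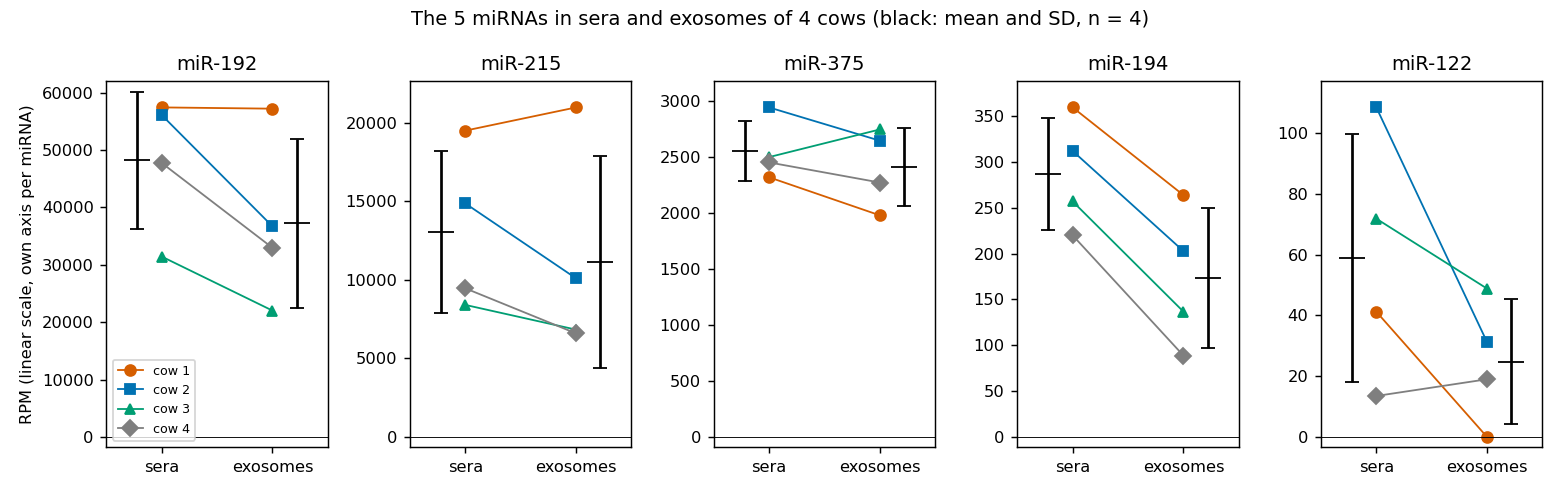
RPM of the 5 miRNAs (linear vertical axes, a separate scale for each miRNA) in sera and exosomes, with each cow's 2 libraries joined by a line and the mean ± SD (n = 4) in black. MiR-194 lies lower in exosomes in all 4 cows, miR-192 and miR-215 differ little in cow 1, miR-375 is nearly level, and miR-122 runs from 0 to 108 RPM.

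The study asked which miRNAs differ between sera and exosomes. None of the 5 miRNAs passed the thresholds (false discovery rate, FDR, under 0.05 with a log2 fold change beyond 1 in either direction) by limma on log2(RPM + 1), with p-values adjusted over the 365 expressed miRNAs. Over all 365, 3.01% were called higher in sera, 1.37% higher in exosomes and 4.38% in either direction, so that 0 of 5 is close to the background. At an unadjusted p under 0.05, 1 of the 5 passed, miR-194, with a fold change under the limit. That mark was passed by 25.8% of the 365 miRNAs, and by 22.7% with sera higher, so that 1 of 5 is near the background too. By edgeR and by DESeq2 on the recovered reads, 0 of the 5 were called and 0 had an unadjusted p under 0.05.

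Of the 5, miR-194 had the largest difference that rested on at least 10 reads in every library. Its mean was 287 ± 61.3 RPM for sera against 173 ± 76.4 RPM for exosomes (SD, n = 4), and the log2 fold change was 0.82 (standard error 0.37, 95% interval 0.02 to 1.61, limma FDR = 0.175). It ranged from 0.54 without the exosomes of cow 4 to 1.06 without those of cow 1. For miR-192 the log2 fold change was 0.42 (95% interval -0.23 to 1.06, limma FDR = 0.409), and for miR-215 it was 0.32 (95% interval -0.45 to 1.09, limma FDR = 0.647). With 1 library left out, miR-215 ranged from 0.097 without the serum of cow 1 to 0.68 without the exosomes of cow 1, and miR-192 from 0.19 without the exosomes of cow 3 to 0.65 without those of cow 1. MiR-375 had means of 2551 ± 270.4 and 2408 ± 352 RPM (SD, n = 4) and a log2 fold change of 0.09 (95% interval -0.31 to 0.48, limma FDR = 0.798). In this fit, which leaves out the pairing by cow, the interval of miR-375 lies inside the limits of 1 and -1. The intervals of the other 4 members cross a limit. Once cows were blocked, the standard error fell from 0.299 to 0.125 for miR-192 and from 0.359 to 0.115 for miR-215. It fell less for miR-194 (0.369 to 0.260) and stayed large for miR-122 (0.815). The crossing by miR-192 and miR-215 therefore belongs to the unpaired fit and does not leave a difference of that size open within cows.

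MiR-122 had means of 58.7 ± 40.8 RPM for sera and 24.8 ± 20.5 RPM for exosomes (SD, n = 4). Its log2 fold change of 1.81 was the largest of the 5 and also the least certain (standard error 1.15, 95% interval -0.66 to 4.28, limma FDR = 0.359). It rested on 100 reads in the 4 sera and 12 in the 4 exosome libraries, and it fell to 0.56 without the exosome library of cow 1, which has no read of it. By edgeR on the recovered reads it was 0.93 (FDR = 0.554). Without both libraries of cow 1, the limma log2 fold changes were 0.62 for miR-122, 0.55 for miR-192, 0.94 for miR-194, 0.46 for miR-215 and 0.04 for miR-375, and none passed the thresholds.

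All 5 log2 fold changes were above 0, with a median of 0.42, beside a median of 0.57 over the 365 miRNAs and of 0.31 over the 128 that reached 10 reads in all 8 libraries. The summed share of the 7 erythrocyte miRNAs was 22.9% to 32.5% for sera and 26.9% to 49.1% for exosomes, a sum led by miR-486 and miR-92a, while the median log2 fold change of the 7 was 0.65 and the list was not tested as a group. With RPM computed over the other miRNA reads, the log2 fold changes were 1.65 for miR-122, 0.54 for miR-194, 0.14 for miR-192, 0.04 for miR-215 and -0.19 for miR-375, and the median of the miRNAs with at least 10 reads became 0.03. The sign of miR-375 and the size of the others therefore depend on the scale, as with edgeR and DESeq2, which gave miR-375 -0.14 and -0.26, and DESeq2 gave miR-215 -0.039.

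With the cow as a replicate block, 3 of the 5 had a limma FDR under 0.05, at 0.00517 for miR-192, 0.00943 for miR-194 and 0.0243 for miR-215, while their log2 fold changes stayed under the limit of 1. In that fit 23.0% of the 365 miRNAs were higher in sera with an FDR under 0.05. MiR-192 and miR-194 were higher in sera in 4 of 4 cows, which 51.6% of the 128 miRNAs that reached 10 reads in all 8 libraries also were. The counting intervals of serum and exosomes overlapped in cow 1 for miR-192, and in cows 1, 2 and 3 for miR-194, so these intervals did not separate the sample types in those cows. By edgeR with the block none of the 5 had an FDR under 0.05, with 0.0537 for miR-194 the lowest.

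**Figure D2:**
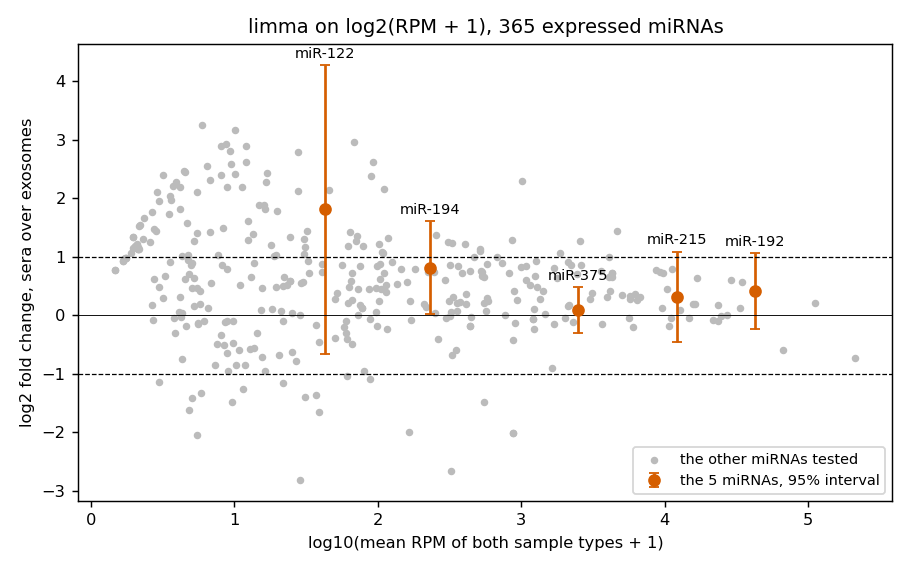
Log2 fold change of sera over exosomes by limma (vertical axis) against the mean level on a log10 scale (horizontal axis) for the 5 miRNAs, with 95% intervals, and for the other miRNAs tested (grey points). Dashed lines mark the fold change limits of 1 and -1, and the 5 miRNAs lie among the grey points, from 0.09 for miR-375 to 1.81 for miR-122.

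Together the 5 miRNAs made up 7.97%, 7.43%, 4.27% and 5.99% of the miRNA reads in serum (cows 1 to 4). In exosomes they made up 8.04%, 4.97%, 3.18% and 4.20%. The means were 6.41% ± 1.66 and 5.10% ± 2.10 (SD, n = 4), a difference of 1.32 percentage points. A two-sided exact permutation test with 70 assignments, which leaves out the pairing by cow, gave p = 0.371, where 0.0286 is the smallest possible. In 3 of 4 cows the sum was larger in serum (paired exact sign-flip test, p = 0.25, where 4 pairs allow 0.125 at the least). Without cow 1 sera exceeded exosomes by 1.78 percentage points (p = 0.2 by the exact permutation test). The difference was 0.78 with miR-486 left out of the denominator and 0.52 with all 7 erythrocyte miRNAs left out. It was 0.68 without the exosomes of cow 3, 0.80 without the serum of cow 1, 2.03 without the serum of cow 3 and 2.30 without the exosomes of cow 1. Most of the sum was miR-192, without which it was 1.12% to 2.22% in sera and 0.897% to 2.32% in exosomes.

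Ratios between members of 1 library do not depend on the total of the library. MiR-192 to miR-215 was 2.95, 3.77, 3.74 and 5.05 in serum (cows 1 to 4) against 2.73, 3.64, 3.22 and 5.00 in exosomes. The ratio followed the cow in both sample types, lowest in cow 1 and highest in cow 4. It was slightly higher in sera in 4 of 4 cows, and the mean log2 ratio differed by 0.10, with 1.93 ± 0.32 for sera and 1.83 ± 0.37 for exosomes (SD, n = 4; p = 0.657 by an exact permutation test, and 0.657 adjusted over 4 ratios). It turned to -0.038 without the serum of cow 4 and to -0.029 without the exosomes of cow 1. It rose to 0.22 without the serum of cow 1 and to 0.26 without the exosomes of cow 4. Each of these comparisons kept the other library of that cow, so sera and exosomes no longer held the same cows. Without both libraries of cow 1, which keeps the cows matched, the difference was 0.09.

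MiR-192 to miR-194, the pair of the cluster on chromosome 29, was 160, 180, 122 and 217 in serum (cows 1 to 4) and 217, 181, 161 and 371 in exosomes. All 4 cows had the higher ratio in exosomes, with log2 differences, sera less exosomes, from -0.0069 in cow 2 to -0.76 in cow 4. The difference in mean log2 ratio, sera less exosomes, was -0.40 and not past 0.05 (exact permutation test, p = 0.229; adjusted p = 0.657 over 4 ratios; paired exact sign-flip test, p = 0.125). The exosome value of cow 4 rested on 14 reads of miR-194. The difference was -0.15 without it, -0.25 without the serum of cow 3, -0.55 without the exosomes of cow 3 and -0.39 without both libraries of cow 1.

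MiR-375 to miR-192 differed by -0.33 in mean log2 ratio, sera less exosomes, with 3 of 4 cows higher in exosomes (p = 0.457 by an exact permutation test, 0.657 adjusted). In sera, miR-192 was 24.8, 19.1, 12.6 and 19.5 times miR-375 for cows 1 to 4, and in exosomes 28.9, 13.9, 8.03 and 14.5 times. Cow 1 had the lowest and cow 3 the highest share of miR-375 against miR-192 in both sample types. Without the libraries of cow 1 the difference was -0.51 (exact permutation test, p = 0.3). With 1 library left out it ranged from -0.036 without the exosomes of cow 3 to -0.65 without the exosomes of cow 1, and it was -0.19 without the serum of cow 1 and -0.51 without that of cow 3.

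MiR-122 to miR-192, the liver miRNA against the one shared by liver and gut, differed by 1.40 in mean log2 ratio (exact permutation test, p = 0.514; adjusted p = 0.657). The size came from the exosome library of cow 1 with no read of miR-122, without which the difference was -0.086, and it was 0.06 without both libraries of that cow (exact permutation test, p = 0.9). In the 4 sera, miR-192 was 438 to 3538 times miR-122.

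**Figure D3:**
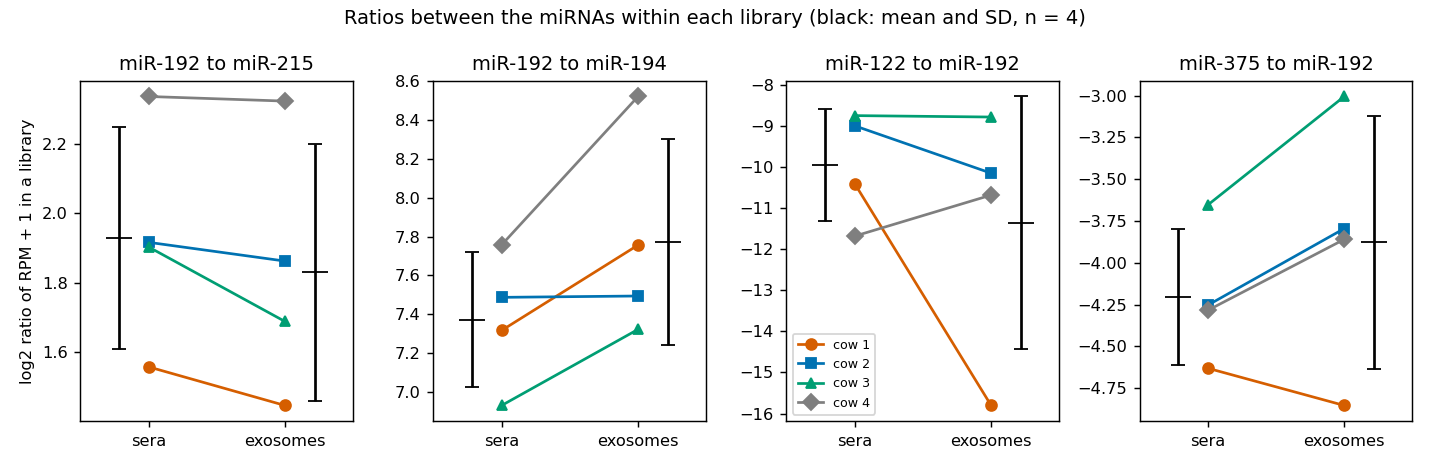
Log2 ratio of RPM + 1 between 2 miRNAs of the same library (vertical axes, a separate scale for each ratio) in sera and exosomes, with lines joining the 2 libraries of a cow and the mean ± SD (n = 4) in black. For miR-192 to miR-215 the line of cow 4 lies highest and that of cow 1 lowest, cows 2 and 3 nearly meet in sera, and the single low point of miR-122 to miR-192 is the exosome library of cow 1.

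The members were then compared in how they varied between cows. The spread between cows, as SD of log2(RPM + 1), was 0.40 in sera and 0.57 in exosomes for miR-192, and 0.57 and 0.78 for miR-215 (n = 4 each). Among the 128 miRNAs that reached 10 reads in all 8 libraries the medians were 0.32 in sera and 0.35 in exosomes, and miR-215 had place 11 of the 128 in sera and place 9 in exosomes. Both places rested on cow 1, without which the SD of miR-215 was 0.43 in sera (place 45) and 0.34 in exosomes (place 58), beside medians of 0.33 and 0.31. For miR-192 the SD without cow 1 was 0.43 and 0.39, and its serum value fell to 0.14 without cow 3. MiR-375 varied least of the 5, with 0.15 and 0.22, and was in places 118 and 104 of the 128, with 0.14 in both sample types without cow 1 and 0.056 in sera without cow 2. For miR-194 the SD was 0.31 in sera and 0.68 in exosomes, where counting error alone would give 0.15 and 0.36, and without cow 1 it was 0.25 and 0.59. For miR-122 it was 1.26 in sera, where counting error would give 0.41, and the exosome value of 2.55 came from the library with no read, without which it was 0.66. The serum value was 1.54 without cow 1 and 0.69 without cow 4.

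Whether the 5 vary together was described by the correlation of log2(RPM + 1) over the 8 libraries, with no test, because 2 libraries of a cow come from the same serum and the cows are only 4. MiR-192 and miR-215 had r = 0.87, miR-194 and miR-215 had r = 0.80, and miR-192 and miR-194 had r = 0.71. For comparison, the median r over the 8128 pairs of the 128 miRNAs was 0.26 and the upper quartile 0.58. After subtraction of the mean of each sample type, miR-194 and miR-215 lay on the same side of the mean in 8 of 8 libraries, and each of them lay with miR-192 in 7 of 8. The library in which miR-192 went the other way was the serum of cow 4. Without cow 1, over 6 libraries, the values were 0.84 for miR-192 with miR-215, 0.84 for miR-194 with miR-215 and 0.60 for miR-192 with miR-194.

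MiR-122 and miR-375 had r = 0.85 over the 8 libraries and 0.74 over the 6 without cow 1, although miR-122 moved far more than miR-375. The exosome values of miR-122 rested on 0, 4, 5 and 3 reads (cows 1 to 4), so its movement there holds much counting error. At 0 reads its log2 value is set by the 1 RPM added. Between miR-122 or miR-375 and the other 3 miRNAs, r was from -0.39 to 0.04 over the 8 libraries. That range rested on cow 1, in which miR-192, miR-194 and miR-215 were at their highest and miR-375 at its lowest. Without cow 1 the same 6 values lay between 0.02 and 0.67. The highest were 0.67 for miR-215 and 0.60 for miR-194, each with miR-375, beside 0.60 for miR-192 with miR-194. No background r over the libraries without cow 1 is given. With RPM over the reads other than the 7 erythrocyte miRNAs, r was 0.83, 0.74 and 0.58 for the 3 pairs among miR-192, miR-194 and miR-215, and 0.64 for miR-122 with miR-375.

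**Figure D4:**
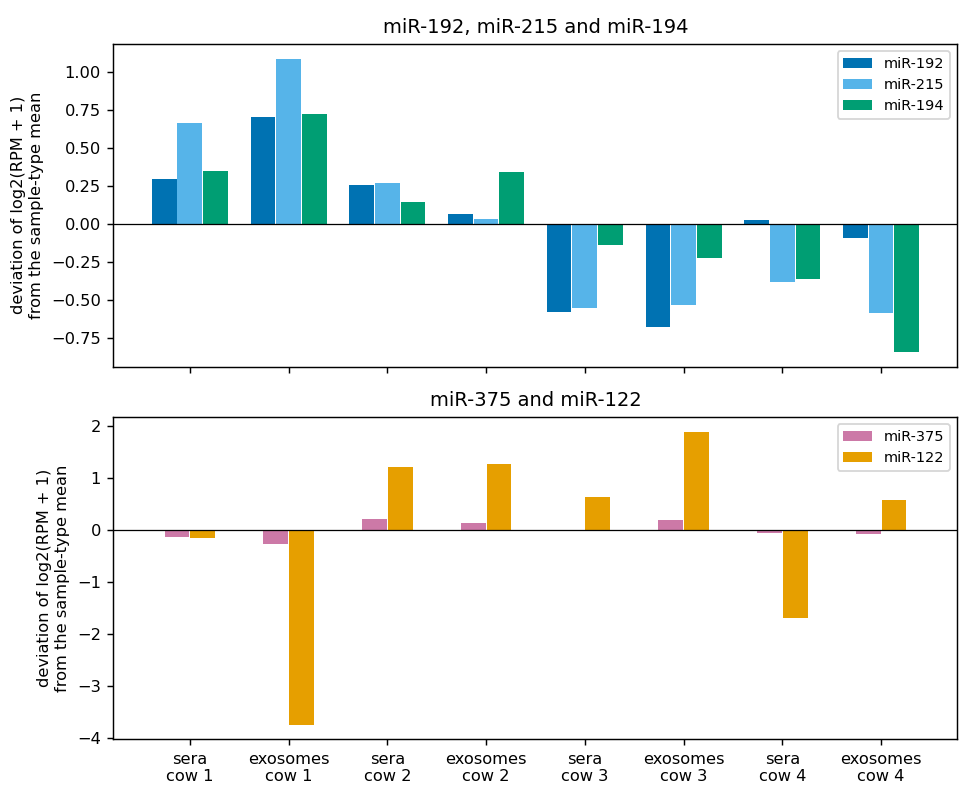
Difference between log2(RPM + 1) and its mean over the 4 libraries of a sample type (vertical axes, different scales) for miR-192, miR-215 and miR-194 (upper panel) and for miR-375 and miR-122 (lower panel) in the 8 libraries, ordered by cow. The upper 3 miRNAs are above the mean in both libraries of cows 1 and 2 and, except for miR-192 in the serum of cow 4, below it in cows 3 and 4, and miR-122 is lowest in the exosomes of cow 1.

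Other miRNAs with a like pattern were ranked by r over the same 8 libraries, among those that reached 10 reads in all 8 libraries. The closest to miR-192 were miR-30a-5p (r = 0.90), miR-342 (r = 0.86) and miR-125a (r = 0.81). The closest to miR-215 were miR-378 (r = 0.87), miR-342 (r = 0.86) and miR-142-5p (r = 0.80), and those to miR-194 were miR-1388-3p (r = 0.89), miR-22-5p (r = 0.83) and miR-29a (r = 0.82). MiR-375 was closest to miR-25 (r = 0.81), miR-93 (r = 0.81) and miR-16b (r = 0.65), and miR-122 to miR-3596 (r = 0.79), miR-16b (r = 0.78) and let-7b (r = 0.76). Without cow 1, over 6 libraries, r lay between 0.75 and 0.99 for the 3 named with miR-192 and the 3 named with miR-194. For those named with miR-215 it was 0.48 to 0.70, with miR-375 0.26 to 0.68 and with miR-122 0.16 to 0.49.

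Lists of miRNAs from tissues and blood cells were placed beside the members. Over all 365 expressed miRNAs, 4.38% passed the limma thresholds in either direction, the share to set beside the counts of each list. Of 9 other miRNAs abundant or enriched in liver, 8 were listed and 7 were expressed, with a median log2 fold change of 0.08 and none past the limma thresholds. They held 2.16% to 2.98% of the reads for sera and 1.77% to 2.54% for exosomes, nearly all of it miR-101 (13161 ± 3022 RPM in sera) and miR-148a (12094 ± 2607 RPM in sera; SD, n = 4), which are not specific to liver. The liver-enriched miR-885 had 23 reads in the 4 sera and 5 in the 4 exosome libraries, and miR-483 had 1 and 0. The others of the list had more, with 120 and 31 for miR-193b, 78 and 33 for miR-193a-3p, 67 and 35 for miR-365-3p and 52 and 11 for miR-193a. Mean RPM was higher in exosomes for miR-365-3p, miR-193a-3p and miR-193b, and higher in sera for miR-193a and miR-885. The limma log2 fold change went the other way for miR-193b (0.12) and miR-885 (-0.57), so their direction depends on the measure.

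Of 8 miRNAs of gut and other barrier epithelium, 6 were listed and expressed, with a median log2 fold change of 0.62. They held 0.216% to 0.421% of the reads in sera and 0.129% to 0.335% in exosomes. MiR-200a, of the family that keeps cells epithelial, was the only one of the 6 past the thresholds, which 3.01% of the 365 miRNAs passed with sera higher. It had 563 ± 146 RPM for sera and 247 ± 89.3 RPM for exosomes (SD, n = 4; log2 fold change 1.22, limma FDR = 0.0337). MiR-141 of the same family had the highest level, at 1452 ± 555 RPM for sera and 1252 ± 609.7 RPM for exosomes (SD, n = 4), and miR-205 had 979 ± 352 and 652 ± 383 RPM. Cows 1 and 4 held the most of this list in both sample types and cow 2 the least, which is not the order of miR-192.

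Of 13 miRNAs of pancreas and neuroendocrine cells other than miR-375, 11 rows were listed, 8 had reads and 7 were expressed, with none past the thresholds. They held 0.00271% to 0.00604% of the reads in sera and 0.00078% to 0.00824% in exosomes. MiR-216a and miR-217, which mark the exocrine pancreas, had 3 reads each in the 4 sera and 1 and 0 reads in the 4 exosome libraries, against 4107 and 1098 reads of miR-375. The highest of the list was miR-182, at 29.6 ± 8.93 RPM for sera and 27.2 ± 27.0 RPM for exosomes (SD, n = 4). By the mean over all 8 libraries the next was the neural miR-9-5p, which had only 1 read in the 4 sera and 3 in the 4 exosome libraries, while in sera other members such as miR-9-3p (7 reads) lay above it.

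Among the blood cell lists, 2 of 7 erythrocyte miRNAs were called higher in sera, as were 3.01% of all 365 miRNAs. These 2 were miR-16a (log2 fold change 1.44, limma FDR = 0.00139) and miR-144 (log2 fold change 1.10, limma FDR = 0.0149). Of the leukocyte and platelet miRNAs, 0 of 8 were called, beside 4.38% of the 365 in either direction. The 2 most abundant erythrocyte miRNAs, miR-486 and miR-92a, had log2 fold changes of -0.73 and -0.59 (limma FDR = 0.149 and 0.132). The leukocyte and platelet list held 4.77% to 5.30% of the reads in sera and 4.18% to 5.34% in exosomes, led by miR-142-5p and miR-150. The 7 muscle miRNAs had 6 with reads and 4 expressed, with none called. They were led by miR-133a and miR-208b, and both libraries of cow 1 held far more of them than the rest, as given above.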

How the data were processed

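Small RNA of sera and exosomes from 4 cows was sequenced. Per the labels and the methods, low-quality reads were removed with CASAVA 1.8, and reads over 15 nt were aligned with sRNAbench (default parameters) to the bovine miRNAs of miRBase release 21, each library separately. The authors deposited RPM, 1 table per library, and each table summed to between 999998 and 1000000, so RPM is a share of the miRNA reads. Whole reads were recovered from the smallest step of each library, and 100% of the values were rebuilt within 0.1 RPM. Mature sequences were not used here.

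The members and lists were chosen with earlier results of these data known. Sample type and cow were taken from the labels, and the same cows gave serum and exosomes per the study's methods. Over 128 miRNAs, deviations of the same cow had r between 0.740 and 0.860 across sera and exosomes. The written design named limma for RPM, which was used without a block (lmFit, then eBayes with its trend option) on log2(RPM + 1) values of 365 miRNAs, with Benjamini-Hochberg adjustment over all of them. Where reads are few, the pseudocount sets part of the fold change, which for miR-122, with 1 library at 0, was 2.64 at 0.1 RPM, 1.81 at 1 RPM and 1.01 at 10 RPM. The alternatives were edgeR's quasi-likelihood test and DESeq2 on recovered reads, the cow as a replicate block, pseudocounts of 0.1 and 10 RPM, other filters, other denominators and each library left out. Shares and ratios were compared with exact permutation tests, two-sided. The limma and edgeR fits were checked on simulated data. The miRNAs named beside the members were the 3 most alike in pattern, and of each list the 2 with the highest mean and those past the thresholds. MiR-885, the other liver miRNAs below the 2 highest, miR-216a and miR-217 were added after their values were seen. Models were fitted in R 4.3.3 (edgeR 4.0.16, limma 3.58.1, DESeq2 1.42.0), and other steps in Python 3.11.15 with SciPy 1.17.1.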

Additional observations from a re-analysis of the deposited data

How the results depend on the processing

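None of the 5 miRNAs passed the limma thresholds in the main fit or in any of 20 other fits (19 for miR-122, which the minimum of 10 reads in every library leaves out). Over these fits the log2 fold change ran from 0.56 to 2.64 for miR-122, from 0.08 to 0.65 for miR-192, from 0.45 to 1.06 for miR-194 and from -0.039 (DESeq2) to 0.68 for miR-215. It also turned negative for miR-375 with edgeR (-0.14, and -0.13 with the replicate block), DESeq2 (-0.26), RPM without miR-486 (-0.12), RPM without the 7 erythrocyte miRNAs (-0.19) and without the exosome library of cow 1 (-0.0019), and its highest value with 1 library left out was 0.16. Over the 365 tested, 11 passed the thresholds with sera higher and 5 with exosomes higher. Those numbers became 29 in sera with limma and the replicate block, 6 and 8 with edgeR, 13 in exosomes with edgeR and the replicate block, 3 and 13 with DESeq2, 6 in sera without miR-486 and 4 in sera without the erythrocyte miRNAs. Leaving out 1 library at a time gave 7 (without the serum of cow 3) to 18 (without the exosomes of cow 3) in sera and 3 (without the serum of cow 2 or of cow 4) to 5 in exosomes. For the summed share and the 4 ratios no alternative gave an unadjusted exact p under 0.05. The paired test cannot go below 0.125 and the comparison without cow 1 cannot go below 0.1. With 1 library left out, a test of 3 libraries against 4 cannot reach 0.05 either. The p-values of these 3 kinds of alternative therefore say nothing of stability. Leaving out 1 library kept the other library of that cow. The difference in mean log2 ratio of miR-192 to miR-215 then ranged from -0.038 (without the serum of cow 4) to 0.26. That of miR-122 to miR-192 ranged from -0.086 (without the exosomes of cow 1) to 2.25. With a pseudocount of 10 RPM the SD of miR-122 in exosomes was 1.10, and without the erythrocyte miRNAs the SD of miR-375 was 0.23 in sera and 0.41 in exosomes. Leaving out 1 cow, the SD ranged for miR-122 from 0.69 to 1.54 (sera) and from 0.66 to 3.09 (exosomes), from 0.14 to 0.49 in sera for miR-192, from 0.34 to 0.95 in exosomes for miR-215 and from 0.056 to 0.18 in sera for miR-375. The cause of these shifts was not tested. With the exact sign-flip test within cows, the paired test, p was 0.25 for the summed share and 0.125 to 0.375 for the ratios. Depth limits miR-122 and, in exosomes, miR-194.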
